A study of Mus musculus with 20 samples.

Results

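A set of 32 genes that mark fibroblasts and their matrix, smooth muscle, or blood and lymph vessels was followed through 20 RNA-seq libraries of jejunal epithelium. The genes were taken by symbol from a fixed list: 5 fibrillar collagens, 4 basement membrane collagens, 4 beaded or fibril-associated collagens, 5 matrix glycoproteins and proteoglycans, 3 mesenchymal receptor or filament genes, 6 smooth muscle genes and 5 endothelial genes. All 32 were found among the 17294 gene names of the acute table. In the prolonged table, 30 were found among 16195 names, and Cnn1 and Kdr were not listed.

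The libraries were made from poly(A) RNA of epithelial cells from the jejunum of female mice, which the series design names as crypt cells. The study compared control mice, with the genotype Control/WT, with double-knockout mice (DKO) that had lost the histone demethylase genes Kdm6a and Kdm6b. Mice of the acute model were sampled 7 days after ablation was induced (5 control and 7 DKO libraries), and mice of the prolonged model 5 months after it (3 control and 5 DKO libraries). Libraries of a group are described as biological replicates, and each acute label names a numbered mouse. The agent and the recombinase that ablated the genes, the promoter driving it, the strain and the age of the mice, and how the epithelium was separated from the tissue under it are not given in the sources used here.

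The mucosa of the small intestine is a sheet of epithelium on a basement membrane, over a lamina propria that holds fibroblasts, smooth muscle strands, capillaries, a lymph vessel in each villus, and immune cells. Fibroblasts secrete the interstitial matrix: fibrillar collagens that form cables, beaded collagen VI, fibronectin, fibrillin, and small proteoglycans such as decorin and lumican that bind collagen fibrils. Smooth muscle is marked by contractile proteins, and endothelium by junction proteins and receptors for vascular growth factors. Epithelial cells themselves make none of the fibrillar collagens in quantity, which is why these genes are read as markers of the tissue beneath the epithelium. Some genes of the list are less specific: a long form of myosin light chain kinase (Mylk) is made by intestinal epithelium, vimentin (Vim) by lymphocytes, and Pecam1 by leukocytes.

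Values are CPM, the reads of a gene scaled to the same total of reads in genes in every library. They carry no gene length, so levels are compared between libraries and not between genes. Between 9914740 and 26586000 reads lay in genes per library, so that 1 read was worth 0.0376 to 0.101 CPM, and a count of 0 allows up to 3 reads, or 0.113 to 0.303 CPM. These limits cover counting error only. The targeted genes checked the labels: Kdm6a lay between 57.7 and 72.6 CPM in acute controls and between 38.5 and 45.7 CPM in acute DKO libraries, and Kdm6b between 91.2 and 109 CPM and between 59.8 and 81.1 CPM. At the prolonged time Kdm6a lay between 70.8 and 82.6 CPM in controls and between 44.4 and 55.3 CPM in DKO libraries, and Kdm6b between 99.5 and 107 CPM and between 71.4 and 82.9 CPM. A sum of 11 epithelial genes, from Epcam to Hnf4a, stayed between 9394 and 11008 CPM in all 20 libraries.

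Matrix genes of the list moved together across the acute libraries, and Mylk did not (below). For 3 of these genes the sequence just before the transcription start is shown, to set a pair of collagen genes that followed each other beside Mylk. The sequences are the 250 bases before the start in RefSeq, build GRCm38.p6, plus strand: Col1a2 at chr6:4505368-4505617, Col3a1 at chr1:45311288-45311537 and Mylk at chr16:34784700-34784949. Capitals mark a match to CCAAT (read ATTGG where it lies on the minus strand) or TATAAA.
Col1a2: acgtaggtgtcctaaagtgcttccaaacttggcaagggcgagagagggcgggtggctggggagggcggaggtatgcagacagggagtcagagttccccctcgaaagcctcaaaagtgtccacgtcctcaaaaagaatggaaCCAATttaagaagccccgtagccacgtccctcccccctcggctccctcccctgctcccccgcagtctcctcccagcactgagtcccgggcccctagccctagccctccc
Col3a1: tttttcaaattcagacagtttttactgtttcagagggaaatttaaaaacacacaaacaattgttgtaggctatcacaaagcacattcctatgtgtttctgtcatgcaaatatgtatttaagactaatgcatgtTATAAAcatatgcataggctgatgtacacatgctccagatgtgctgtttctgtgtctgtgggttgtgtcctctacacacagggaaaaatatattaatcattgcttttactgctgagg
Mylk: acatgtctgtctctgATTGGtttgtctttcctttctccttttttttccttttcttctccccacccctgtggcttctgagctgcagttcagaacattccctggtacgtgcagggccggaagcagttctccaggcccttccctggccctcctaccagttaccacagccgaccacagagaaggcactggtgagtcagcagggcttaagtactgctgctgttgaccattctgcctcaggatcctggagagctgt
The CCAAT match of Col1a2 lay 109 to 105 bases before the start, the TATAAA match of Col3a1 117 to 112 bases before it, and the minus-strand CCAAT match of Mylk 235 to 231 bases before it. RefSeq promoters were found for 20 of the 32 genes. On both strands of the same window, CCAAT occurred in 7 of these 20 and in 33.8% of 32851 promoters, TATAAA in 2 of 20 and in 12.4%, and the CArG box, the site of serum response factor, in 0 of 20 and in 1.47%. No overlap between these motifs was counted. A match describes these letters only. Whether the Mylk start shown serves the long form made by epithelium was not checked.

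Not all parts of the list were represented in the RNA. The most specific contractile genes were at or near 0: the smooth muscle myosin heavy chain gene Myh11 lay between 0 and 0.326 CPM (0 to 8 reads) in the 12 acute libraries, and the calponin gene Cnn1 between 0 and 0.212 CPM (0 to 4 reads). The smooth muscle actin gene Acta2 lay between 0.0376 and 1.41 CPM (1 to 33 reads) and the muscle desmin gene Des between 0 and 1.59 CPM (0 to 37 reads), both highest in acute DKO 3. The endothelial cadherin gene Cdh5 lay between 0 and 0.449 CPM (0 to 11 reads) and the VEGF receptor gene Kdr between 0 and 0.734 CPM (0 to 18 reads). Of the smooth muscle and endothelial genes, Mylk, Tagln, Pecam1, Tek and Lyve1 were above 0 in all 20 libraries. Tek was low among them, at 0.301 to 2.05 CPM (8 to 44 reads) in the acute libraries. Given the low values above, these genes are described by gene, with no cell type read from them.

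**Figure D1:**
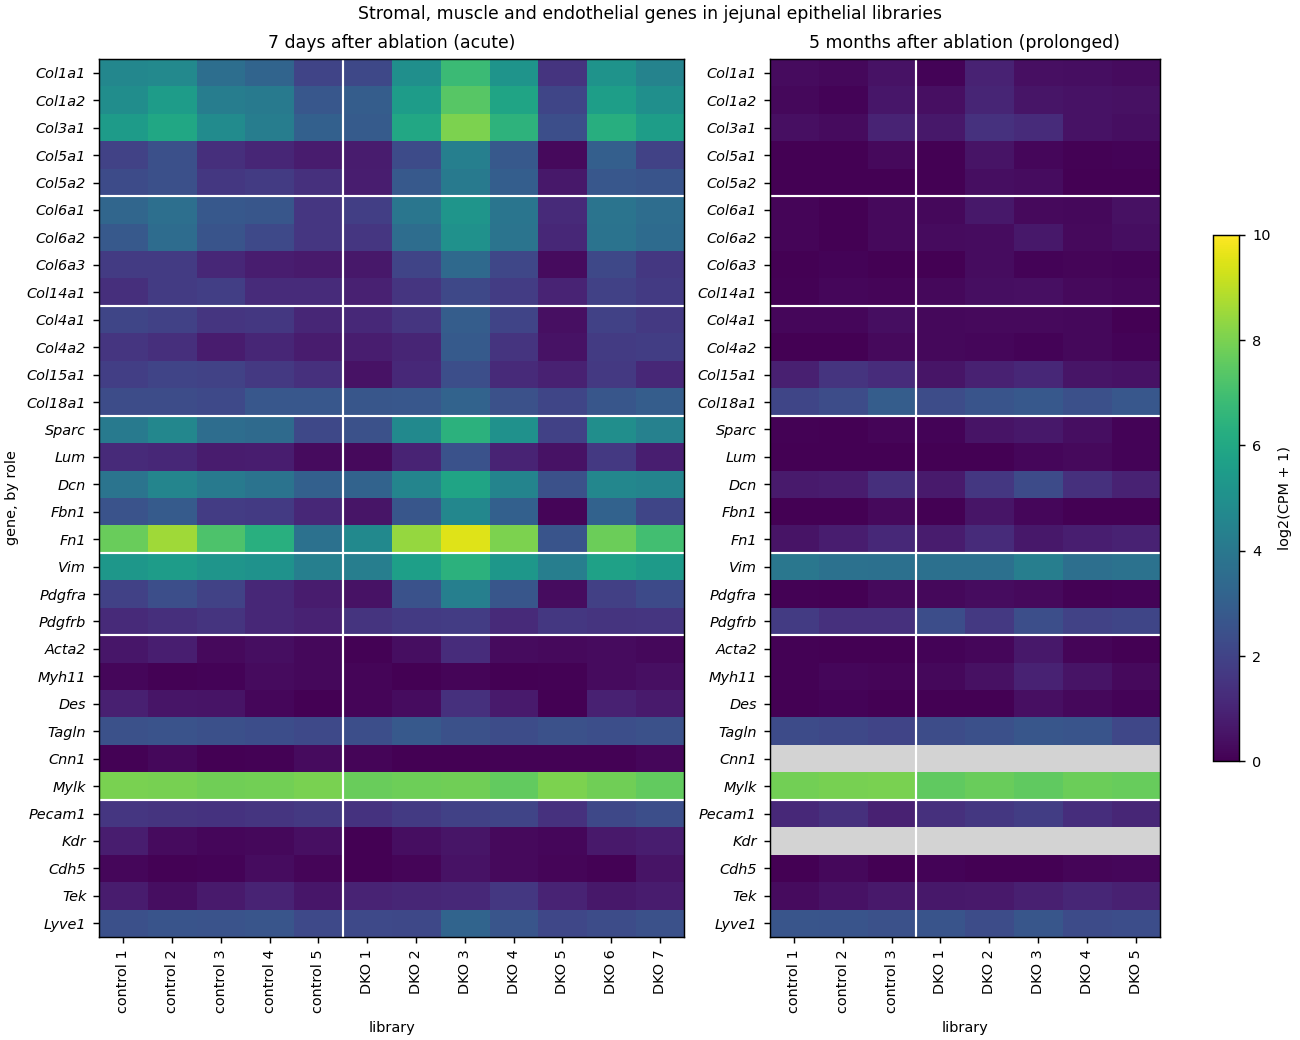
Level of each of the 32 genes (rows, grouped by role) in each library (columns, grouped by time and genotype), as log2(CPM + 1); grey cells mark genes that the prolonged table does not list. Matrix genes form a block that is bright in most acute libraries, dim in acute DKO 1, acute DKO 5 and acute control 5, and dark in all prolonged libraries, while Mylk is level throughout.

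The first comparison asked whether these genes differed between DKO and control libraries 7 days after ablation. None of the 27 genes that passed the filter on low values (0.5 CPM in at least 5 of the 12 libraries) was called. A call needed an adjusted p under 0.05 (Benjamini-Hochberg, over all 13601 genes tested) in limma on log2(CPM + 1). Over all genes tested, 15.0% were called, 2.90% higher and 12.1% lower in DKO libraries. At an unadjusted p under 0.05 there were 2 of the 27 genes, Pdgfrb and Mylk, and 3924 of all genes. In no member were the groups' CPM apart, against 7.79% of all genes tested. Log2 fold changes (DKO minus control) were above 0 in 24 of the 27 and below 0 in Col15a1, Mylk and Lyve1, with a median of 0.34 against -0.07 for all genes. That median rested in large part on single libraries: it was 0.14 without acute DKO 3, 0.22 without acute control 5, 0.54 without acute DKO 5, and 0.01 without acute DKO 3 and 4 together. Acute DKO 3 and 4 carry mouse numbers above those of all other acute libraries, controls included. The labels do not say what this order of numbers means. The number of genes called over the table fell from 2035 to 1239 without acute control 3. The filter kept 27 of 32 genes, and Acta2, Myh11, Cnn1, Kdr and Cdh5 were not tested.

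Among the receptors, Pdgfra and Pdgfrb behaved unlike each other. Pdgfra encodes the PDGF receptor alpha of fibroblasts and of the cells just under the epithelium, and ranged from 0.690 to 4.22 CPM in acute controls and from 0.274 to 19.1 CPM in acute DKO libraries. Pdgfrb encodes the PDGF receptor beta of pericytes and fibroblasts, and held 1.29, 1.54, 1.81, 1.14 and 0.956 CPM in acute controls 1 to 5. In the 7 acute DKO libraries Pdgfrb had a lowest value of 1.26, a median of 1.88 and a highest value of 2.44 CPM. All but 1 of the DKO libraries (DKO 4) were above 4 of the 5 controls, and the groups overlapped. The log2 fold change of Pdgfrb was 0.32 ± 0.13 (SE), with a 95% interval of 0.05 to 0.60 and an adjusted p of 0.109 by limma. It passed the threshold without acute DKO 4 (adjusted p = 0.0471), with TMM scaling (0.0475) and with DESeq2 (0.0315), and over its 19 alternatives the adjusted p ran from 0.0315 to 0.224. In the authors' deposited table Pdgfrb had a log2 fold change of 0.63 with an adjusted p of 0.0290 at this time.

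The fibrillar collagens varied more between libraries of a group than between the groups. Col3a1, the collagen III chain of soft tissue, held 44.0, 62.0, 27.3, 18.1 and 7.49 CPM in acute controls 1 to 5. In acute DKO libraries it had a lowest value of 4.34 (DKO 5), a median of 62.0 and a highest value of 257 CPM (DKO 3). Controls thus lay wholly inside the DKO range. The log2 fold change of Col3a1 was 0.64 ± 0.86, with an interval of -1.20 to 2.49 (adjusted p = 0.676, limma). Col1a1, which encodes a chain of collagen I, held 23.8, 25.3, 11.1, 8.40 and 3.19 CPM in controls, and 1.83, 30.5 and 112 CPM as the lowest, median and highest DKO values. The same libraries were lowest and highest as for Col3a1, and the log2 fold change was 0.68 ± 0.80 (interval -1.04 to 2.40). Col5a1, a chain of collagen V, which helps start collagen fibrils, held 2.93, 4.41, 1.55, 1.10 and 0.690 CPM in controls and 0.183, 3.83 and 18.8 CPM as the lowest, median and highest DKO values (0.68 ± 0.58, interval -0.57 to 1.93). Col1a2 and Col5a2 spanned 3.29 to 166 CPM and 0.548 to 16.0 CPM over all acute libraries. From the lowest to the highest acute library the fibrillar collagens differed 29.2-fold (Col5a2) to 103-fold (Col5a1). The intervals of Col3a1, Col1a1 and Col1a2 hold a 2-fold fall as well as a 2-fold rise, so a change of that size was not detectable in these libraries.

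Collagen VI, a beaded collagen around cells, was lowest and highest in the same libraries. Col6a1 held 8.91, 11.53, 5.83, 5.43 and 1.96 CPM in acute controls and 1.28, 13.5 and 36.2 CPM as the lowest, median and highest DKO values (log2 fold change 0.56 ± 0.59, interval -0.71 to 1.84). Col6a2 and Col6a3 were lowest in acute DKO 5 and highest in acute DKO 3 too, 28.3-fold and 42.6-fold apart. Col14a1, a collagen that binds to fibrils, spanned less, 0.903 to 3.47 CPM.

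The basement membrane collagens split. Col4a1 and Col4a2, the chains of the collagen IV network, spanned 0.320 to 6.77 CPM and 0.411 to 6.22 CPM, and the log2 fold change of Col4a1 was 0.03 ± 0.34. Col18a1, the core of a basement membrane proteoglycan, held 4.04, 4.03, 3.63, 5.51 and 5.63 CPM in acute controls and 3.24, 5.44 and 8.14 CPM as the lowest, median and highest DKO values. Its libraries were 2.51-fold apart at most, and its log2 fold change was 0.22 ± 0.17. Col15a1, a collagen of basement membranes of muscle and vessels, held 2.67, 3.09, 2.92, 2.12 and 1.65 CPM in controls and 0.414, 1.21 and 4.24 CPM in DKO libraries. It was below every control in 5 of the 7 DKO libraries and above every control in acute DKO 3. The log2 fold change of Col15a1 was -0.51 ± 0.26 (interval -1.07 to 0.05, adjusted p = 0.216, limma), and the authors' deposited table gives -0.51 with an adjusted p of 0.505. Without acute DKO 3 it was -0.70 with an adjusted p of 0.0325, and without acute DKO 3 and 4 it was -0.71 with 0.0348, while over its 19 alternatives the adjusted p ran from 0.0325 to 0.495.

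Fn1, which encodes the cell-binding glycoprotein fibronectin, held 209, 378, 146, 78.8 and 12.2 CPM in acute controls 1 to 5, and 25.9, 337, 723, 258, 5.07, 213 and 124 CPM in acute DKO libraries 1 to 7. The highest library had 143 times the level of the lowest, and both were DKO libraries. Fn1 had a log2 fold change of 0.15 ± 1.10, with an interval of -2.20 to 2.51, and it was below 0 without any of acute control 5, DKO 2, DKO 3 or DKO 4. Sparc, a collagen-binding glycoprotein of fibroblasts, held 16.6, 23.8, 11.01, 10.01 and 3.45 CPM in controls and 2.83, 26.1 and 84.5 CPM as the lowest, median and highest DKO values. Its log2 fold change was 0.69 ± 0.67 (interval -0.76 to 2.14, adjusted p = 0.554, limma). Dcn, which encodes decorin, held 13.3, 22.3, 16.5, 13.0 and 7.49 CPM in controls and 4.52, 21.9 and 55.7 CPM in DKO libraries (0.37 ± 0.46). Fbn1, which encodes fibrillin of elastic microfibrils, spanned 0.0914 to 23.9 CPM, and Lum, which encodes lumican, 0.188 to 4.80 CPM. Vim, the intermediate filament gene of mesenchymal cells and leukocytes, held 38.7, 45.0, 36.1, 33.3 and 19.1 CPM in controls and 18.2, 42.9 and 85.8 CPM in DKO libraries. Its libraries were 4.70-fold apart, against 12.3-fold for Dcn, 29.8-fold for Sparc and 261-fold for Fbn1.

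Of the smooth muscle genes, Mylk and Tagln varied little, 1.35-fold and 1.62-fold between the lowest and the highest acute library, while Des, on few reads, ran from 0 to 1.59 CPM. Mylk, the kinase that starts contraction by phosphorylating the myosin light chain, held 253, 244, 229, 231 and 249.8 CPM in acute controls and 190.5, 219.7 and 258 CPM as the lowest, median and highest DKO values. In 6 of 7 DKO libraries it was below every control, and in DKO 5, where the matrix genes were lowest, it was above every control. Mylk had a log2 fold change of -0.16 ± 0.07 (interval -0.31 to -0.01, adjusted p = 0.157, limma), and without acute DKO 5 it was -0.20 with an adjusted p of 0.0420. The authors' deposited table gives Mylk a log2 fold change of -0.06 with an adjusted p of 0.736 at this time. Over its 19 alternatives the adjusted p of Mylk ran from 0.0420 to 0.717. Tagln, which encodes the actin-binding protein transgelin, held 4.60, 4.86, 4.41, 4.16 and 3.61 CPM in controls and 4.01, 4.57 and 5.86 CPM in DKO libraries (0.07 ± 0.10).

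The endothelial genes tested spanned 2.46-fold (Lyve1), 2.56-fold (Pecam1) and 6.81-fold (Tek) over the acute libraries. Lyve1, the hyaluronan receptor of lymph vessels, held 4.43, 4.97, 4.86, 5.17 and 3.61 CPM in acute controls and 3.43, 4.02 and 8.44 CPM in DKO libraries (-0.03 ± 0.18), with acute DKO 3 highest. Pecam1, an adhesion gene of endothelium and leukocytes, lay between 1.75 and 2.12 CPM in controls and between 1.69 and 4.32 CPM in DKO libraries (0.33 ± 0.16, adjusted p = 0.207, limma). Tek, the angiopoietin receptor gene, lay between 0.301 and 1.02 CPM and between 0.575 and 2.05 CPM (0.34 ± 0.16, adjusted p = 0.175, limma).

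**Figure D2:**
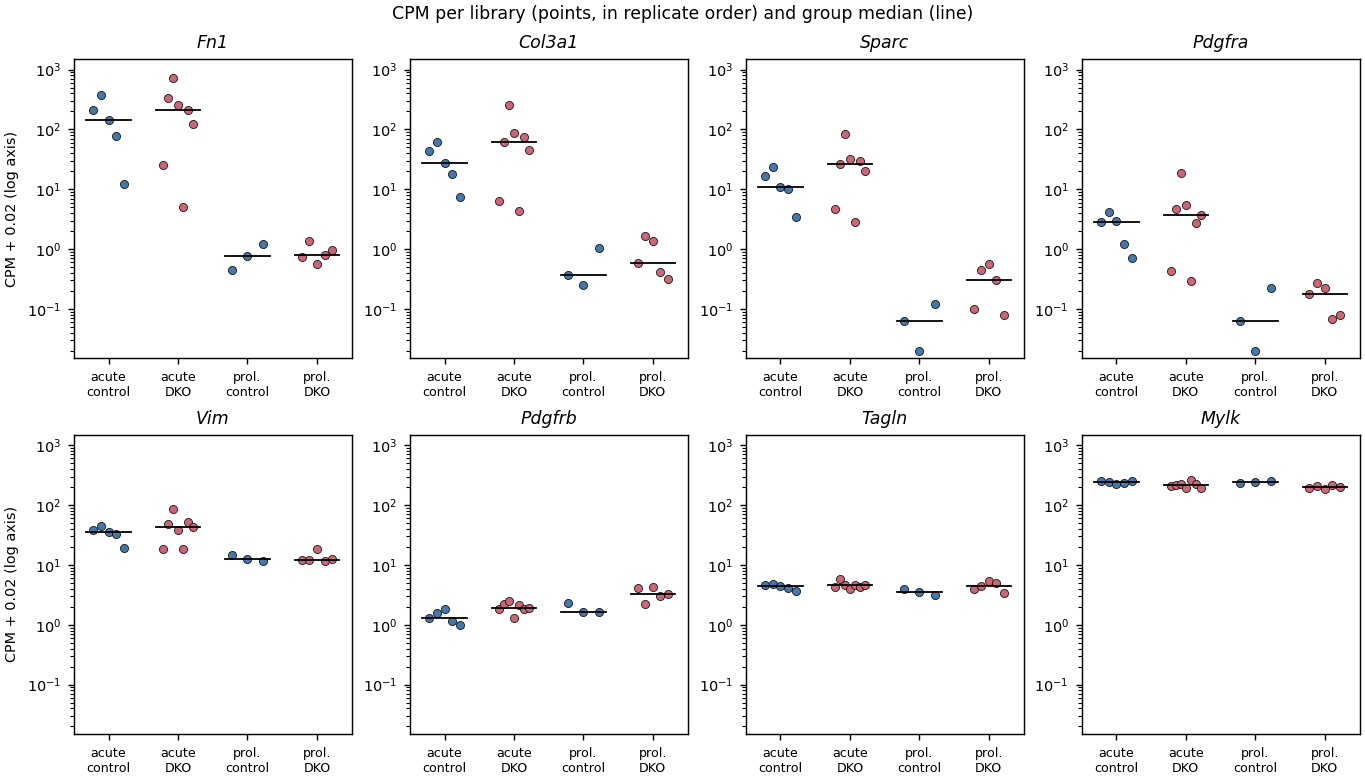
CPM (log axis, with 0.02 added so that a value of 0 can be drawn) of 8 genes in each library, by group; each point is a library and the bar is the group median. Fn1, Col3a1, Sparc and Pdgfra spread widely within both acute groups and drop at the prolonged time, whereas Tagln and Mylk lie in a similar range at both times.

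Acute DKO 3 was the highest library in 23 of the 27 genes tested and acute DKO 5 the lowest in 19 of 27. Acute DKO 3 was the highest library in 7.9% of all genes tested. The share of all genes that were lowest in acute DKO 5 was not counted. The summed CPM of the 32 genes lay between 339 and 920.2 in acute controls and between 309.8 and 1923 in acute DKO libraries. The mean of the DKO sums was 1.36 times that of the controls, 1.04 times without acute DKO 3 and 0.97 times without acute DKO 3 and 4. Fn1 took 1.58% of the 32 genes' reads in acute DKO 5 and 41.1% in acute control 2, and Mylk 80.2% and 26.6%. Whether the libraries differ in the number of stromal cells or in RNA per cell cannot be told apart in bulk RNA.

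How closely each gene followed the collagens was described by Pearson's r of log2(CPM + 1) with the log2 sum of Col1a1, Col1a2 and Col3a1 over the 12 acute libraries, which differ in genotype and share the total that CPM divides by. Of the 27 genes, 15 had r above 0.9, among them the 3 collagens of the sum itself, whereas 193 of all 13601 genes (1.42%) did. Sparc had r = 0.996 (Spearman's rho 1), Col6a1 0.995 (0.98), Fbn1 0.98 (0.97), Dcn 0.97 (0.95), Vim 0.97 (0.89), Fn1 0.96 (0.92) and Pdgfra 0.95 (0.88). Without the 2 libraries farthest from the median of the sum, acute DKO 5 and acute control 5, these values of r were 0.995, 0.99, 0.99, 0.95, 0.95, 0.95 and 0.94. Both of these libraries lay at the low end of the sum. Acute DKO 3, at its high end, was not left out. Low values of r were found for Mylk (-0.34), Tek (0.18), Pdgfrb (0.30), Tagln (0.36), Col18a1 (0.46), Pecam1 (0.56), Col15a1 (0.62) and Lyve1 (0.71). The r of Mylk was 0.06 without those 2 libraries. The list thus held a matrix block that varied together from library to library, and a second set of Mylk, Tagln, Tek, Pecam1, Lyve1, Pdgfrb, Col15a1 and Col18a1 that followed them less or not at all. Not all smooth muscle genes were in the second set: Des had r = 0.89 (rho 0.86), and the caldesmon gene Cald1, which is outside the list, had r = 0.92 (rho 0.97).

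Ranked by r, the genes outside the list most like the collagen sum were the galectin gene Lgals1 (r = 0.99, 0.731 to 26.9 CPM), Cyp1b1 (0.98, 0 to 23.5 CPM), the apolipoprotein gene Apoe (0.98, 8.09 to 232 CPM), Tnxb (0.98), Ccdc80 (0.98) and the macrophage perforin gene Mpeg1 (0.98, 2.28 to 59.7 CPM). The prolonged libraries held at most 0.742 CPM of Lgals1 and 15.6 CPM of Apoe.

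Immune genes were read beside the matrix genes, because the lamina propria holds macrophages. Of 25 immune genes tested, 8 had r above 0.9, and these were Cd68, Adgre1, Csf1r, Lyz2, Itgam and the C1q genes C1qa, C1qb and C1qc. They include Csf1r, the receptor of the macrophage growth factor (r = 0.97, 0.548 to 39.5 CPM), the complement gene C1qc (0.97, 0.228 to 19.3 CPM) and the lysozyme gene Lyz2 (0.96, 3.02 to 342 CPM). The sum of 7 macrophage genes, a grouping made after the values were seen, lay between 16.8 and 252 CPM in acute controls and between 6.35 and 479 CPM in acute DKO libraries, 75.4-fold apart. All 7 are among the 8 genes with r above 0.9, so that the sum goes with the collagens is fixed by their choice. The sum of 7 genes of T cells and cytotoxic lymphocytes, cells that sit within the epithelium, lay between 361 and 610.5 CPM and between 206 and 673 CPM, 3.27-fold apart. Its lowest library was acute DKO 4 and its highest acute DKO 7. Among the epithelial genes 0 of 11 had r above 0.9. The part of these cells in the values of the matrix genes was not tested.

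**Figure D3:**
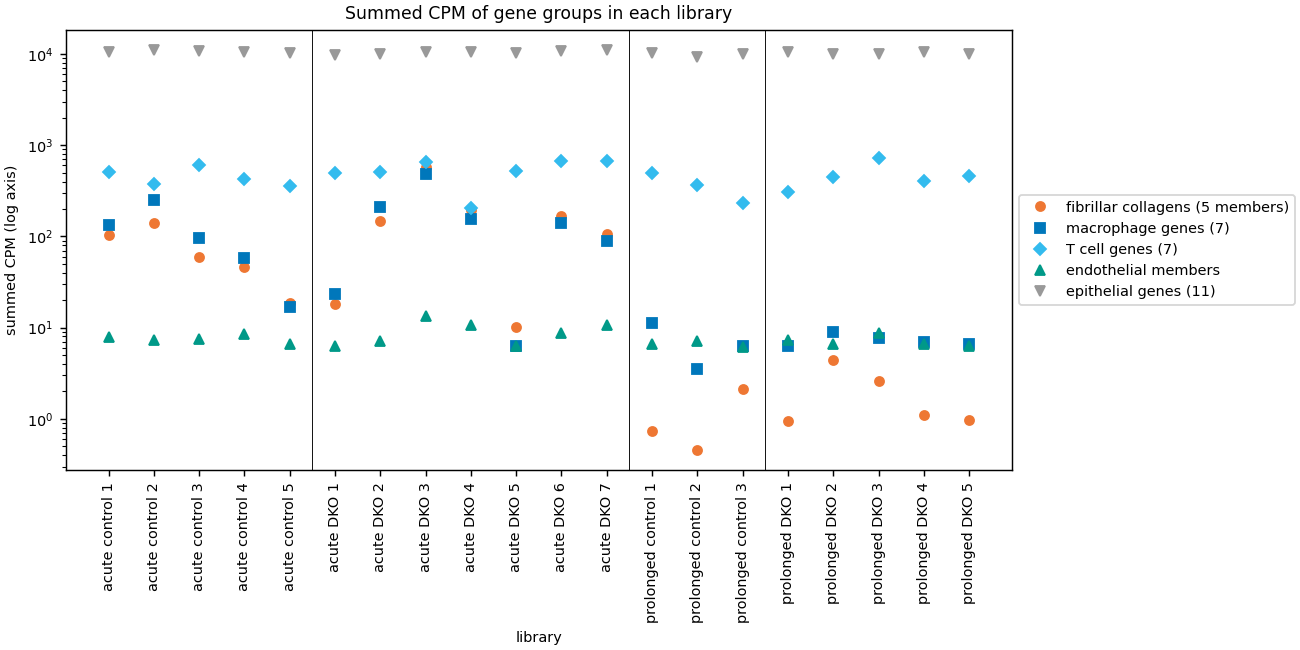
Summed CPM per library (log axis) of the 5 fibrillar collagens, 7 macrophage genes, 7 T cell genes, the endothelial genes of the list and 11 epithelial genes, for all 20 libraries. Collagen and macrophage sums spread widely across the acute libraries and are low in the prolonged ones, while the T cell sum spans 3.27-fold across the acute libraries and the epithelial sum stays between 9394 and 11008 CPM.

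Genes of the same pathways outside the list were counted at the acute time against the 15.0% called among all genes (2.90% higher and 12.1% lower). Of 24 other fibroblast and matrix genes tested, 1 rose and 0 fell, with a median of 0.23 against -0.07 for all genes: Prrx1, a homeobox gene of mesenchyme, went from 18.9 ± 3.85 to 27.7 ± 3.45 CPM (SD, n = 5 and 7; log2 fold change 0.54 ± 0.12, adjusted p = 0.00963, limma). Prrx1 did not follow the collagens (r = -0.15), whereas 8 of these 24 genes (33.3%) had r above 0.9, against 1.42% of all genes. The median r of the 24 genes was 0.85, and their r ran from -0.59 to 0.98. Of 13 enzymes and chaperones of collagen synthesis, 1 rose, the lysyl hydroxylase gene Plod3 (0.26 ± 0.07, adjusted p = 0.0312, limma), and 0 fell, with a median of 0.22. Of 5 other smooth muscle genes, 1 fell and 0 rose, with a median of -0.35: the tropomyosin gene Tpm2 went from 3.24 ± 0.487 to 1.63 ± 0.347 CPM (-0.69 ± 0.12, adjusted p = 0.00202, limma). Of 5 other endothelial genes, 1 fell and 0 rose, with a median of -0.22: Esam, a junction gene of endothelium and platelets, went from 2.94 ± 0.352 to 1.67 ± 0.365 CPM (-0.57 ± 0.12, adjusted p = 0.00619, limma). The r of Tpm2 with the collagen sum was 0.09. None was called among 5 subepithelial signalling genes (median 0.12), 2 pericyte genes (0.05) and 25 immune genes (0.13). Of 3 enteric glia and neuron genes 1 fell, the receptor gene Ret (-0.58 ± 0.11). Of 11 epithelial genes 1 fell, the cadherin gene Cdh1 (-0.18 ± 0.05), with a median of -0.06. Of 15 immediate early genes, which respond quickly to stimuli and handling, 3 rose (Jun, Zfp36 and Fos), with a median of 0.13. The 1 erythrocyte gene tested, Alas2, was not called.

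The second comparison asked the same question 5 months after ablation. The filter (0.5 CPM in at least 3 of 8 libraries) left 12 of the 30 genes. Pdgfrb rose and Mylk fell, and the other 10 did not pass the threshold, where 14.7% of 13316 genes were called, 5.74% higher and 8.94% lower. At an unadjusted p under 0.05 there were 4 of the 12 genes, the other two being Col15a1 and Tek, and 3758 of all genes. The median log2 fold change of the 12 genes was 0.18 against 0.00 for all genes, and 9 of 12 were above 0. It was 0.11 without prolonged control 2 and 0.10 without prolonged DKO 2. The number of genes called over the table fell from 1955 to 1051 without prolonged control 3, the library with the fewest reads. Genes that passed the filter had to reach it in some library, so these counts do not describe the other 18.

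Pdgfrb held 2.33, 1.61 and 1.61 CPM in prolonged controls 1 to 3 and 4.14, 2.16, 4.26, 2.96 and 3.25 CPM in prolonged DKO libraries 1 to 5. Of the 5 DKO libraries 4 lay above every control, and DKO 2 lay below control 1. The log2 fold change of Pdgfrb was 0.60 ± 0.18, with an interval of 0.21 to 0.98 (adjusted p = 0.0415, limma), and the authors' deposited table gives 0.84 with an adjusted p of 0.0264. The call was lost without any of 6 libraries: prolonged control 2 (adjusted p = 0.118), control 3 (0.151), DKO 1 (0.0803), DKO 3 (0.0775), DKO 4 (0.0604) and DKO 5 (0.0762). Over 14 alternatives its adjusted p ran from 0.0141 to 0.151. Of the pericyte genes, which share cells with Pdgfrb, 2 were tested and 0 called, and the sum of all 4 listed ones lay between 3.83 and 4.70 CPM in controls and between 4.56 and 8.11 CPM in DKO libraries. One of these genes, Rgs5, was 0 CPM in all prolonged controls and at most 0.180 CPM (3 reads) in prolonged DKO libraries. The part of the pericyte genes' cells in the Pdgfrb value was not tested.

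Mylk held 233, 245 and 251 CPM in prolonged controls and 190.0, 209, 188, 218 and 201 CPM in prolonged DKO libraries. Every DKO library lay below every control, which held for 20.5% of all genes tested in either direction and for 1 of the 12 genes of the list. Its log2 fold change was -0.27 ± 0.06, with an interval of -0.40 to -0.15 (adjusted p = 0.00913, limma), and the authors' deposited table gives -0.26 with an adjusted p of 0.00537. Without prolonged control 3 it was -0.25 with an adjusted p of 0.0545, and over 14 alternatives the adjusted p ran from 0.00526 to 0.0609. The specific muscle genes stood at or near 0 beside it: Acta2 lay between 0 and 0.0431 CPM in prolonged controls and between 0 and 0.550 CPM in DKO libraries, and Des between 0 and 0.0573 and between 0 and 0.344 CPM. Myh11 lay between 0.0431 and 0.115 CPM in controls and between 0.159 and 0.963 CPM in DKO libraries, on 1 to 14 reads a library, so it was not tested. Its values lay higher in DKO libraries, but on so few reads no direction is set against that of Mylk.

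Col15a1 held 0.863, 1.83 and 1.41 CPM in prolonged controls and 0.478, 0.865, 1.17, 0.485 and 0.421 CPM in DKO libraries, with a log2 fold change of -0.49 ± 0.18 (interval -0.89 to -0.09, adjusted p = 0.1003, limma). Without prolonged DKO 3 the adjusted p was 0.0478, and over 14 alternatives it ran from 0.0478 to 0.324. The authors' deposited table gives Col15a1 an adjusted p of 0.142 at this time. The value lies close to the acute one of -0.51 and did not pass the threshold at either time. Tek lay between 0.216 and 0.605 CPM in controls and between 0.557 and 1.12 CPM in DKO libraries (0.36 ± 0.15, adjusted p = 0.141, limma). Pecam1 had a log2 fold change of 0.29 ± 0.18.

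Matrix genes were few reads at this time. Col3a1 held 0.345, 0.229 and 1.01 CPM in prolonged controls and 0.557, 1.67, 1.38, 0.388 and 0.301 CPM in DKO libraries, on 4 to 27 reads a library, with a log2 fold change of 0.25 ± 0.26. Fn1 held 0.431, 0.745 and 1.21 CPM in controls and 0.717, 1.36, 0.550, 0.776 and 0.962 CPM in DKO libraries (0.07 ± 0.18). Dcn held 0.647, 0.688 and 1.51 CPM in controls and 0.637, 2.04, 3.92, 1.601 and 0.962 CPM in DKO libraries (0.46 ± 0.30, interval -0.20 to 1.11, adjusted p = 0.359, limma). The groups overlapped for these 3 genes. Vim held 14.54, 12.4 and 11.8 CPM in controls and 11.9, 11.9, 18.4, 11.7 and 12.7 CPM in DKO libraries (0.03 ± 0.14). Col18a1 held 3.28, 4.01 and 6.66 CPM in controls and 3.98, 5.07, 5.71, 4.46 and 5.53 CPM in DKO libraries (0.11 ± 0.18), and Tagln had a log2 fold change of 0.26 ± 0.14. Lyve1 held 5.18, 5.04 and 4.64 CPM in controls and 5.10, 4.02, 5.36, 3.93 and 4.15 CPM in DKO libraries (-0.12 ± 0.12). The 18 untested genes had at most 0.963 CPM in any library except Col1a2, which reached 1.05 CPM in prolonged DKO 2. Col14a1 lay between 0.0431 and 0.115 CPM in controls and between 0.120 and 0.344 CPM in DKO libraries, on 1 to 5 reads a library.

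**Figure D4:**
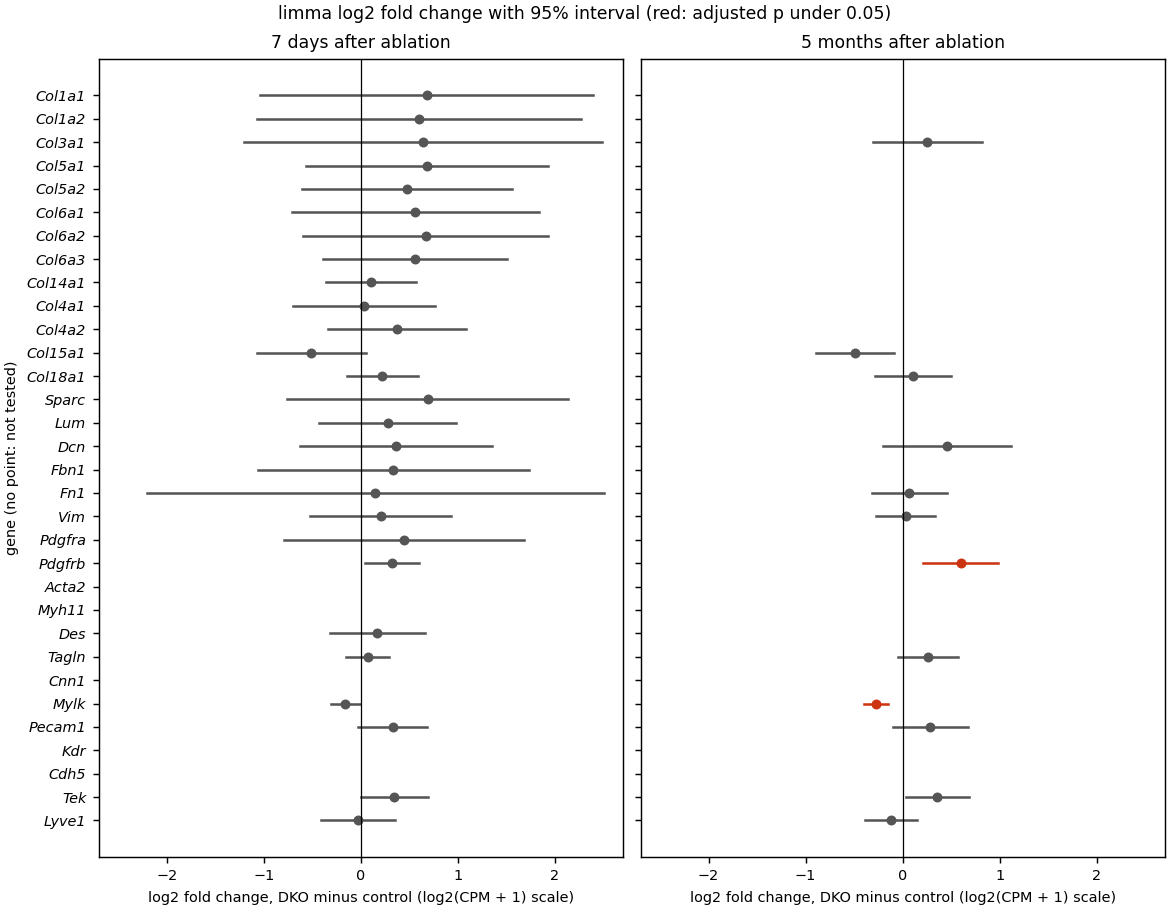
Log2 fold change (DKO minus control, log2(CPM + 1) scale) of each gene tested, with its 95% interval from limma, for the acute and the prolonged comparison; called genes are red. Acute intervals of matrix genes are wide and hold 0, and the prolonged values of Pdgfrb (0.60) and Mylk (-0.27) are the only called ones.

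Counts in the related lists at the prolonged time stand against the 14.7% called among all genes (5.74% higher and 8.94% lower). Here 1 of 11 other fibroblast and matrix genes rose and 1 fell, with a median of 0.02: Timp2, an inhibitor of matrix metalloproteases, rose by 0.70 ± 0.22 (adjusted p = 0.0496, limma), and Nid2, which encodes the basement membrane protein nidogen, went from 17.1 ± 1.56 to 12.1 ± 0.594 CPM (SD, n = 3 and 5; -0.46 ± 0.09, adjusted p = 0.00514, limma). Of 12 collagen synthesis genes 3 rose and 1 fell, with a median of 0.22. The prolyl hydroxylase gene P4ha1 went from 4.71 ± 0.842 to 7.98 ± 1.12 CPM (0.65 ± 0.14), and Plod3 rose by 0.37 ± 0.07. The procollagen protease gene Bmp1 changed by -0.63 ± 0.17. The collagen chaperone gene Serpinh1 rose by 0.50 ± 0.15. It lay between 0 and 0.344 CPM in controls and between 0.421 and 0.894 CPM in DKO libraries. No control reached 0.5 CPM, so Serpinh1 passed the filter through DKO libraries alone, and its call is not read as a result. Tpm2 was lower again (-0.73 ± 0.20), 1 of 5 other smooth muscle genes with a list median of -0.07. Of 5 other endothelial genes 2 fell, with a median of -0.44: Esam (-0.60 ± 0.16) and Vwf, the clotting factor gene of endothelium, from 1.02 ± 0.133 to 0.489 ± 0.119 CPM (-0.44 ± 0.13). The endothelial sum outside the list lay between 6.94 and 8.11 CPM in controls and between 4.51 and 5.65 CPM in DKO libraries, whereas the sum of Pecam1, Cdh5, Tek and Lyve1 lay between 6.15 and 7.22 CPM and between 6.25 and 8.73 CPM. Of 22 immune genes 1 rose, the integrin gene Itgam (0.37 ± 0.09), with a median of 0.24. Of 15 immediate early genes Nr4a1 rose (0.53 ± 0.15), with a median of 0.07. No gene was called among 4 subepithelial (median 0.10), 2 pericyte (0.33), 3 glia and neuron (-0.17), 11 epithelial (0.04) and 1 erythrocyte gene.

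Whether the DKO effect differed between the times was tested in 1 limma model over the 4 groups for 13088 genes, 12 of them members. None of the 12 was called, as 0.00% of all genes were called, and at an unadjusted p under 0.05 there were 0 of the 12 and 608 of all genes. The edgeR test gave 0 members and 0 genes as well. The change of the effect (prolonged minus acute) was 0.28 ± 0.22 for Pdgfrb (interval -0.18 to 0.73), -0.12 ± 0.10 for Mylk (-0.33 to 0.10) and 0.02 ± 0.37 for Col15a1 (-0.76 to 0.79). For Fn1 it was -0.08 ± 1.45 (-3.11 to 2.94), an interval too wide to bound the change.

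Levels at the 2 times are set side by side with no test, since the tables were made separately and time cannot be told apart from the preparation. In 13 of the 30 genes listed at both times, every acute library lay above every prolonged library, which held for 1.56% of the 15882 genes listed at both times. These were 9 collagen genes (Col1a1, Col1a2, Col3a1, Col4a1, Col4a2, Col5a2, Col6a1, Col6a2 and Col14a1), Sparc, Pdgfra, Dcn and Fn1. The median over acute libraries was 233 times that over prolonged libraries for Fn1, 202 times for Sparc, 95.4 times for Col3a1, 15.5 times for Dcn and 3.16 times for Vim. The ratio was near 1 for most of the genes that had not closely followed the collagens across the acute libraries: 1.07 for Mylk, 1.13 for Col18a1, 1.14 for Tagln, 0.93 for Lyve1, 1.32 for Pecam1 and 1.39 for Tek, with 0.68 for Pdgfrb and 2.18 for Col15a1. The macrophage sum lay between 3.55 and 11.2 CPM in the prolonged libraries against 6.35 to 479 CPM in the acute ones. The myeloid integrin genes Itgam and Itgax, which are not in that sum, lay closer at the 2 times: Itgam lay between 15.4 and 23.5 CPM against 15.8 to 63.7 CPM, and Itgax between 5.35 and 13.9 CPM against 6.32 to 19.1 CPM. For the T cell sum the ranges were 229.96 to 721 CPM against 206 to 673 CPM. Summed over the list, prolonged controls held 267 to 288 CPM and prolonged DKO libraries 225 to 255 CPM, of which Mylk took 77.3% to 88.2%.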

How the data were processed

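Poly(A) RNA of 20 libraries in 4 groups was sequenced. Per the submitters' processing notes, the build was mm9 and the tools were STAR, featureCounts 1.6.2 and DESeq2, with FastQC 0.11.5, SAMtools 1.9 and bedtools 2.27.1; no role is stated for each. Nothing says whether reads were counted by strand, so reads of a gene and of its antisense partner cannot be told apart. The authors deposited 1 table per time with CPM per library, every library summing to the same total, and per the file headers a p-value, an adjusted p-value, a log2 fold change, its standard error and a mean normalised signal for each gene. A further 8 columns were not used. In all libraries 100% of CPM values were whole multiples of 1 read, within 0.01 reads, so reads could be recovered; for prolonged control 3 this evidence is weaker. Counts of the 44 pairs of libraries within groups differed by 6.49 to 148 times the sampling variance, so all were kept as separate samples.

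Log2(CPM + 1) values were tested with limma-trend in R 4.3.3 (limma 3.58.1), each time alone, without covariates, for genes at 0.5 CPM in at least 5 acute or 3 prolonged libraries, with Benjamini-Hochberg adjustment over all genes tested and a threshold of 0.05. Errors of fold changes are standard errors; this scale understates changes of low genes. The model between times had 4 groups and 1 interaction contrast. The fit was also run on simulated data, but the outcome is not given and no result here rests on it. Alternatives were a pseudocount of 0.25, no filter, TMM scaling, edgeR 4.0.16 and DESeq2 1.42.0 on recovered reads, a replicate block, and leaving out libraries. Values of each library (in groups over 5, the lowest, median and highest) are given for the gene of each role with the highest control mean among genes tested, for called members and for the 3 members with the largest changes at each time; of other lists, called genes and counts are given. Members and lists were chosen with earlier results of these data known. The labels do not say that prolonged libraries came from separate mice, so their p-values measure the spread between these samples.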

Additional observations from a re-analysis of the deposited data

Results flagged for a closer look

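Of 66 groups of 4 to 10 libraries examined gene by gene, 2 held a library far from the others, and chance alone flags about 1 in 20 groups. Tagln was 5.86 CPM in acute DKO 2, and the next highest acute DKO library had 4.65 CPM, a gap of 0.618 of the group's range. Vim was 18.4 CPM in prolonged DKO 3, and the next highest prolonged DKO library had 12.7 CPM, a gap of 0.818 of the range. Both gaps and ranges were taken on the log2(CPM + 1) scale. Prolonged DKO 3 was the highest library in 6 of the 12 members tested at that time, and the share over all genes was not counted. It also had the highest T cell sum of the prolonged libraries (721 CPM). The part of these cells in the Vim value was not tested.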

How the results depend on the processing

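The acute count of called members was 0 as reported and with a pseudocount of 0.25, no filter, edgeR or the replicate block, and 1 with TMM scaling (Pdgfrb), 1 with DESeq2 (Pdgfrb) and 1 without acute DKO 3 and 4 (Col15a1). Leaving out single libraries gave 0 to 1 called members and 1239 to 2186 called genes at the acute time, and 0 to 2 members and 1051 to 1721 genes at the prolonged time. Over the same settings the acute median ran from 0.14 to 0.54 and the prolonged one from 0.10 to 0.23, and the ratio of summed CPM from 1.04 to 1.58 and from 0.86 to 0.89. Between times, 0 members were called under every alternative, and 0 to 1 genes.

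Whether the replicate numbers of the labels pair the samples cannot be settled with so few libraries. Same-numbered acute libraries had deviations from their group means correlated by -0.20, 0.16, -0.16, -0.14 and 0.20, and prolonged ones by -0.16, -0.23 and -0.24. Of the controls, 0 of 5 and 0 of 3 correlated best with their own number. With the replicate block 947 acute genes and 528 prolonged genes were called, and the prolonged members called went from 2 to 0 (Pdgfrb 0.64, adjusted p = 0.129, and Mylk -0.31, adjusted p = 0.0609, both limma).

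Some acute fold changes that were not called changed sign. Col4a1 was -0.035 with a pseudocount of 0.25, -0.022 with the block and -0.30 without acute DKO 3 and 4. Lyve1 was 0.049 with TMM, 0.12 with edgeR and 0.14 with DESeq2, and Fn1 -0.049 with the block. Without acute DKO 3 and 4, Fn1 was -0.61, Fbn1 -0.27, Pdgfra -0.13, Col3a1 -0.11, Col1a2 -0.078, Col14a1 -0.053, Vim -0.024 and Dcn -0.0031. Leaving out single libraries also turned the sign of Col4a1 (-0.18 to 0.24), Fbn1 (-0.047 to 0.71), Fn1 (-0.59 to 0.86) and Lyve1 (-0.16 to 0.025) at the acute time and of Col18a1 (-0.067 to 0.35), Fn1 (-0.083 to 0.23) and Vim (-0.083 to 0.11) at the prolonged time. The cause was not tested. At the prolonged time 18 of 30 members were too few in reads to test.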
